A study of Mus musculus with 5 samples.

Results

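Axon guidance ligands and receptors were examined in cultures labelled as mouse mesenchymal stem cells, stromal cells that can form bone, fat and cartilage. Members were all genes of the table whose symbol belongs to the semaphorins of classes 3 to 7, the plexins, Plxdc1 and Plxdc2, the neuropilins, the ephrins, the Eph receptors, the Slits, the Robos, the netrins or the Unc5 receptors. They numbered 45 of 12621 genes, and the other 25 of 70 protein-coding genes with such symbols in GENCODE M21 were not analysed here. The rule used names and no measured value. Libraries came from wild-type cells (WT, n = 2) and from cells labelled as knockout for TSG-6, a secreted hyaluronan-binding protein encoded by Tnfaip6 (knockout, n = 3). Every sample carries the strain label Balb/c (C.129S6), and neither age, passage nor the construction of the knockout allele is given. According to the design text each cell type had 2 biological replicates, fewer than the 3 knockout libraries. Library names end in C1 or SE for the wild type and in C1, C2 or SE for the knockout, and no label explains these suffixes. Whether any libraries share an animal or culture is not stated. The p-values therefore describe only the variation from library to library, which may be technical.

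Guidance cues were named for steering growing axons, but stromal, endothelial and immune cells use them as well to control adhesion, spreading and migration. Secreted class 3 semaphorins bind a neuropilin that signals through a plexin, while membrane semaphorins bind plexins directly. Ephrins sit on the cell surface, ephrin-A by a lipid anchor and ephrin-B by a transmembrane segment, and signal to Eph receptor tyrosine kinases on touching cells. Netrins act through DCC, neogenin and the Unc5 receptors, and Slits act through Robo receptors. In bone and marrow stroma, semaphorins and ephrins are known for signalling between osteoblasts, osteoclasts and blood vessels.

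Values are normalised counts, gene reads scaled by the authors to roughly the CPM scale, and recovered reads numbered between 13605555 and 26658725 per library. Series of values follow the order C1 and SE for the wild type and C1, C2 and SE for the knockout. Tnfaip6 itself had normalised counts of 6.04 and 3.21 in wild-type C1 and SE and of 1.65, 2.38 and 1.36 in knockout C1, C2 and SE. Every knockout library was below both wild-type libraries, but the difference did not pass the threshold (log2 fold change -1.13, SE 0.37, adjusted p = 0.0578). The knockout libraries held 117 reads of Tnfaip6, and which part of the gene was altered is not given, so its gene count is no check of the labels. Of 10 markers of mesenchymal stem cells, 9 were measured, with sums of 2292 to 2624 in wild-type and 1674 to 2887 in knockout libraries. Of these, 4 fell (Cd44, Nt5e, Ly6a and Alcam, the last at 0 in knockout C1 and SE) and none passed in the other direction. The 5 markers of fibroblasts and stroma summed to 4824 to 6228 and 7428 to 25360, and of these Col1a1 and Col1a2 rose. Markers of other cell types also differed between the groups. The 3 measured of 8 neuronal markers summed to 126 to 187 in wild-type and 0 to 0.0757 in knockout libraries, with Nefl and Nefm at 0 in each knockout library. The 3 measured of 8 epithelial and mesothelial markers summed to 321 to 368 against 2.51 to 5.88. The 3 measured of 9 blood cell markers summed to 3.11 to 5.19 against 38.8 to 46.8, and the 2 measured of 7 glial markers to 1.71 to 2.68 against 7.52 to 9.16. Among the blood cell markers, Csf1r and Lyz2 were called higher, while Cd68 overlapped between the groups and was not called. Vwf, the only measured marker of 9 for endothelium, was between 0 and 0.0405 in wild-type and between 0.376 and 3.80 in knockout libraries. These markers move with the changes described here, and their part in them was not tested. In bulk RNA, fewer cells of a type and less RNA per cell cannot be told apart.

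Of the 45 members, 41 passed the filter on low values, a normalised count of at least 1 in at least 2 libraries. The knockout was compared with the wild type by limma on log2 of the value plus 0.5, with p-values adjusted over all 12484 genes that passed, of which 34.3% were called at an adjusted p under 0.05. Among the members, 14 were lower in the knockout, against 17.1% lower among all genes, and 7 were higher, against 17.2% higher among all genes. The other 20 tested members did not pass. Of the called members, Epha7, Ntn1, Plxna4 and Plxnb1 met the filter only through wild-type values, and Epha4 and Ephb2 only through knockout values. For these genes, entry into the test depended on the difference between the groups itself, so their calls are no separate support for the counts. Without this filter, 8 of the 45 members were higher and 14 lower, against 2163 and 2134 of 12621 genes. The median log2 fold change of the tested members was -0.43, and it was -0.09 over all tested genes. That of the members is the value of Plxnb2, which had an SE of 1.00. The value was negative for 23 members and positive for 18, against 6713 and 5771 of all tested genes. Of 21 tested ligands, 10 fell (47.6%, against 17.1% of all genes) and 2 rose (9.52%, against 17.2%). Of 20 tested receptors, 4 fell (20%) and 5 rose (25%), the share that fell being near that of all genes. Counts of ligands and of receptors were not repeated without single libraries. Among the ligands, the calls of Efna5, Sema3a, Sema3f, Sema5a and Sema7a were each lost without at least 1 single library, as given below. The groups did not overlap in 26 of the 41 members, against 58.8% of all genes, a share near the background. Knockout values were all lower in 16 of them, against 30.7% of all genes, and all higher in 10, against 28% of all genes. Without wild-type C1, 6 members were lower and 4 higher, and without wild-type SE, 5 were lower and 5 higher. The filter then kept 37 and 36 members, and Epha7, Ntn1, Plxna4 and Plxnb1 were not among them. With all 41 members kept in the test, a choice made after these counts were seen, 8 were lower and 3 higher without wild-type C1, and 7 were lower and 3 higher without wild-type SE. Among all genes that passed the filter, leaving out wild-type C1 gave 1134 higher and 594 lower, and leaving out wild-type SE gave 1049 higher and 627 lower. With the genes of the full comparison kept, these were 928 and 764, and 846 and 774. Without knockout C2, 1280 of all tested genes were lower.

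**Figure D1:**
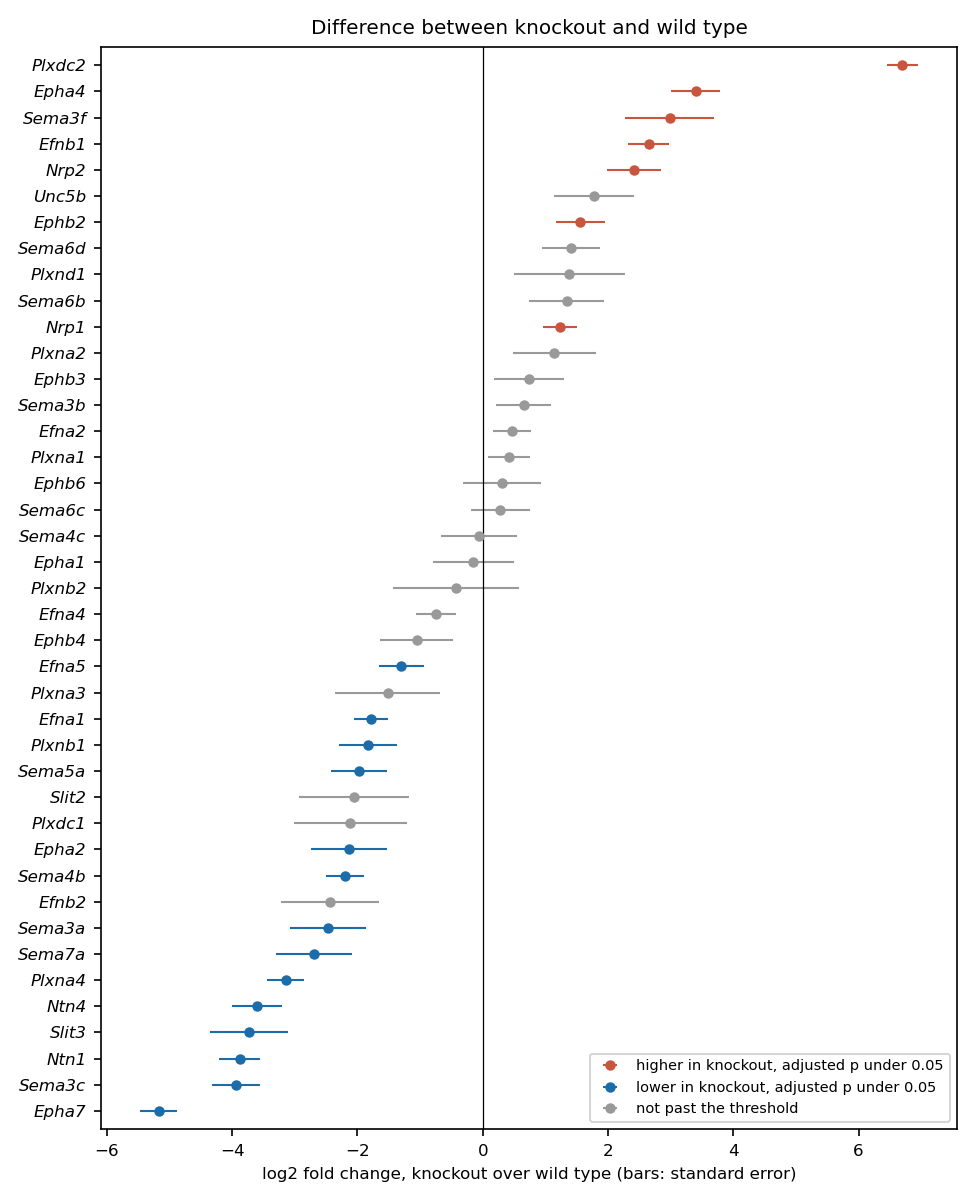
Log2 fold change of knockout over wild type (x axis, log2 of the normalised count plus 0.5) for the 41 tested members, ordered by size on the y axis. Points are limma estimates, bars their standard errors, red and blue points passed an adjusted p of 0.05. Plxdc2 stands apart on the right at 6.70 and Epha7 on the left at -5.17.

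Among the secreted class 3 semaphorins, Sema3a and Sema3c fell and Sema3f rose. Sema3a, which collapses growth cones through neuropilin-1 and plexin-A receptors, had normalised counts of 232 and 292 in wild-type C1 and SE. In the knockout its values were 48.6, 20.5 and 101 in C1, C2 and SE. All 3 knockout libraries lay below both wild-type libraries. Sema3a fell 4.61-fold (log2 fold change -2.47, SE 0.61, adjusted p = 0.0228), or 7.59-fold without knockout SE. It was not called without wild-type C1 or without wild-type SE (adjusted p = 0.0703 and 0.092). Sema3c, a semaphorin known from the migration of neural crest cells into the heart, had 56.4 and 109.5 in wild-type and 3.62, 4.84 and 5.804 in knockout libraries. The knockout values were close to each other and far below the wild type. Sema3c fell 17.4-fold (log2 fold change -3.93, SE 0.38, adjusted p = 0.000644). Its promoter is shown because it had the largest fall among ligands with a promoter sequence at hand, with matches to the GC box GGGCGG, the TATA box TATAAA and the CCAAT box (either strand) in capitals.
Sema3c promoter: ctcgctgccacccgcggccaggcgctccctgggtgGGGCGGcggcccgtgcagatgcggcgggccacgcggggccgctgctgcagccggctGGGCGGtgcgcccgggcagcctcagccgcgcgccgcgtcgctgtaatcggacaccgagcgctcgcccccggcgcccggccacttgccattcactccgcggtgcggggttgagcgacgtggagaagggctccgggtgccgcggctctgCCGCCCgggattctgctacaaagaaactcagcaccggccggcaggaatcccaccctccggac
This window, chr5:17574566-17574865 on the plus strand of GRCm38.p6 (RefSeq), was 75.7% G and C, with 42 CpG and 3 GC boxes.

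Sema3f, a ligand of neuropilin-2, moved the other way. Its normalised counts were 1.38 and 3.00 in the wild type and 13.3, 10.7 and 53.5 in knockout C1, C2 and SE. Knockout SE was the highest, and even the lowest knockout library was above both wild-type libraries. Sema3f rose 11.8-fold (log2 fold change 2.98, SE 0.71, adjusted p = 0.0201), by 5.47-fold without knockout SE and 18.7-fold without wild-type SE. The call was lost without wild-type C1 (adjusted p = 0.102) and, with the genes of the full comparison kept, also without wild-type SE (adjusted p = 0.112). Its neighbour Sema3b, within a stretch of 113 kb on chromosome 9, overlapped between the groups, at 3.80 ± 0.27 and 6.79 ± 3.43 (adjusted p = 0.292). Sema3d and Sema3e were too low for the test. Sema3d had 1 wild-type read and 57 knockout reads, 40.7 times the wild-type rate (exact 95% interval for counting error from 7.01 to 1634). Sema3e was at 0.284 and 0.363 in wild-type and between 0.658 and 1.78 in knockout libraries. Divided by exon length, the level of the class as a whole was 31.8 ± 8.55 per kb in wild-type and 11.4 ± 8.32 in knockout libraries. Sema3a and Sema3c held 60.4% ± 6.8 and 35.6% ± 7.0 of it in wild-type and 35.8% ± 10.6 and 7.48% ± 4.0 in knockout libraries, while the share of Sema3f went from 1.28% ± 0.35 to 39.7% ± 8.2 (SD, n = 2 and n = 3).

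Among the membrane semaphorins, 3 of the 7 tested fell and none passed in the other direction. Sema4b, a transmembrane semaphorin, had 14.5 and 14.3 in wild-type and 2.12, 3.37 and 2.87 in knockout libraries. The spread within each group was small beside the gap. Sema4b fell 5.17-fold (log2 fold change -2.20, SE 0.31, adjusted p = 0.00275). Sema5a, which carries thrombospondin repeats outside the membrane, had 50.5 and 59.9 against 7.38, 17.1 and 19.6. Knockout C1 was the lowest, and no library of one group reached the other group. Sema5a fell 3.75-fold (log2 fold change -1.98, SE 0.44, adjusted p = 0.0157), a call lost without wild-type C1 or without wild-type SE (adjusted p = 0.0626 and 0.0836). Sema7a, the lipid-anchored semaphorin that binds integrins and plexin C1, had 8.67 and 26.1 against 2.21, 0.870 and 3.30. All knockout values were below the lower wild-type value, with a wide spread in each group. Sema7a fell 8.18-fold (log2 fold change -2.69, SE 0.61, adjusted p = 0.0159), by 12.3-fold without wild-type C1 and by 4.08-fold without wild-type SE, where it was not called (adjusted p = 0.096). Sema6d, a plexin-A ligand, had higher values in each knockout library, at 2.43 and 2.38 against 4.28, 6.73 and 12.7, and did not pass (log2 fold change 1.40, SE 0.46, adjusted p = 0.056, and 0.0103 with the suffix as a block, that is, compared within C and SE). Sema4c, Sema6b and Sema6c overlapped between the groups, with adjusted p between 0.132 and 0.954, and of these Sema6b was called higher with the block (log2 fold change 1.56, adjusted p = 0.00492). With this block, 3530 of the 12484 tested genes were called higher and 4038 lower, so most tested genes passed.

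Both neuropilins, the co-receptors of class 3 semaphorins and of VEGF, rose. Nrp1 had normalised counts of 73.2 and 88.7 in wild-type and 154, 184 and 243 in knockout libraries. Each knockout library was above the higher wild-type library. Nrp1 rose 2.39-fold (log2 fold change 1.24, SE 0.27, adjusted p = 0.0137), a call lost without wild-type C1, wild-type SE or knockout C2 (adjusted p = 0.0976, 0.0524 and 0.0513). Nrp2 had 38.5 and 56.4 in wild-type and 172, 206 and 445 in knockout libraries. All knockout values exceeded both wild-type values, and knockout SE was the highest. Nrp2 rose 5.78-fold (log2 fold change 2.42, SE 0.44, adjusted p = 0.00717). With the genes of the full comparison kept, the call was lost without wild-type C1 or without wild-type SE (adjusted p = 0.103 and 0.0693). Per kb of exon, the neuropilins together were at 12.3 ± 2.2 in wild-type and 43.0 ± 17.2 in knockout libraries, and Nrp2 went from 32.4% ± 2.9 of this level to 52.1% ± 7.0.

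Of 7 plexins, the signalling receptors of the semaphorins, 2 fell and none passed in the other direction, and the plexins with the highest level per kb did not pass. Plxnb2, a receptor of class 4 semaphorins, had 87.6 and 453 in wild-type C1 and SE and 78.1, 79.8 and 518 in knockout C1, C2 and SE. The SE library was the highest in each group, and the C libraries of both groups were alike. Its log2 fold change of -0.43 (SE 1.00, adjusted p = 0.777) carried a sign that turned without wild-type SE, knockout C1 or knockout C2 (0.75, 0.03 and 0.01). Plxna1, a partner of the neuropilins, had 76.0 and 119 against 102, 111 and 181, and the groups overlapped (log2 fold change 0.42, SE 0.34, adjusted p = 0.384). Exons of an antisense gene cover 10.7% of the exons of Plxna1, and the use of strand in counting is unknown. Plxna2 had 4.54 and 7.93 against 7.57, 9.80 and 35.0, with knockout SE far above the rest (adjusted p = 0.228). Both plexins that fell were low. Plxna4, a plexin that pairs with neuropilin-1, had 4.99 and 4.09 in wild-type and 0.235, 0 and 0 in knockout libraries, from 202 reads against 5, all of the latter in C1. Its log2 fold change was -3.14 (SE 0.30, adjusted p = 0.000572), with means 57.9-fold apart, 38.6-fold without knockout C2 and with no knockout read without knockout C1. Plxnb1, a receptor of Sema4d, had 1.74 and 2.90 against 0, 0.189 and 0.860, and its mean was 6.64-fold lower (log2 fold change -1.83, SE 0.47, adjusted p = 0.025). That ratio was 24.5 without knockout SE and 4.43 without knockout C1. Plxnb1 was not called without knockout C2 (adjusted p = 0.0703), without either wild-type library with the genes of the full comparison kept (adjusted p = 0.0998 and 0.174), and by edgeR and DESeq2 on recovered reads (adjusted p = 0.0802 and 0.0662). Plxna3 and Plxnd1, the latter the receptor of Sema3e, overlapped between the groups (adjusted p = 0.208 and 0.272). With the suffix as a block, by which most tested genes passed, 4 more plexins were called. Plxna1, Plxna2 and Plxnd1 were higher (log2 fold change 0.53, 1.38 and 1.73, adjusted p = 0.00774, 0.00951 and 0.00275), and Plxna3 was lower (log2 fold change -1.18, adjusted p = 0.00524).

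Plxdc2, a single-pass membrane protein that shares a domain with the plexins and is known as a receptor of pigment epithelium-derived factor, had the largest log2 fold change of all members by limma. By edgeR on recovered reads, that of Ephb2, which had no wild-type read, was larger (7.46, against 7.07 for Plxdc2). Plxdc2 had 1.70 and 1.76 in wild-type and 260.0, 191 and 249 in knockout libraries, from 76 and 14047 reads. The libraries of each group lay close together. Plxdc2 rose 135-fold, and by 127-fold to 147-fold without single libraries (log2 fold change 6.70, SE 0.25, adjusted p = 4.71e-05). Plxdc1, its relative known as a marker of tumour vessels, had 7.01 and 11.7 in wild-type and 0.423, 7.72 and 0.932 in knockout libraries. Knockout C2 was as high as wild-type C1, and the other two knockout libraries were low. The difference of Plxdc1 did not pass (log2 fold change -2.11, SE 0.90, adjusted p = 0.116). Of the summed level per kb of the pair, Plxdc2 held 12.0% ± 3.5 in wild-type and 97.9% ± 3.0 in knockout libraries.

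**Figure D2:**
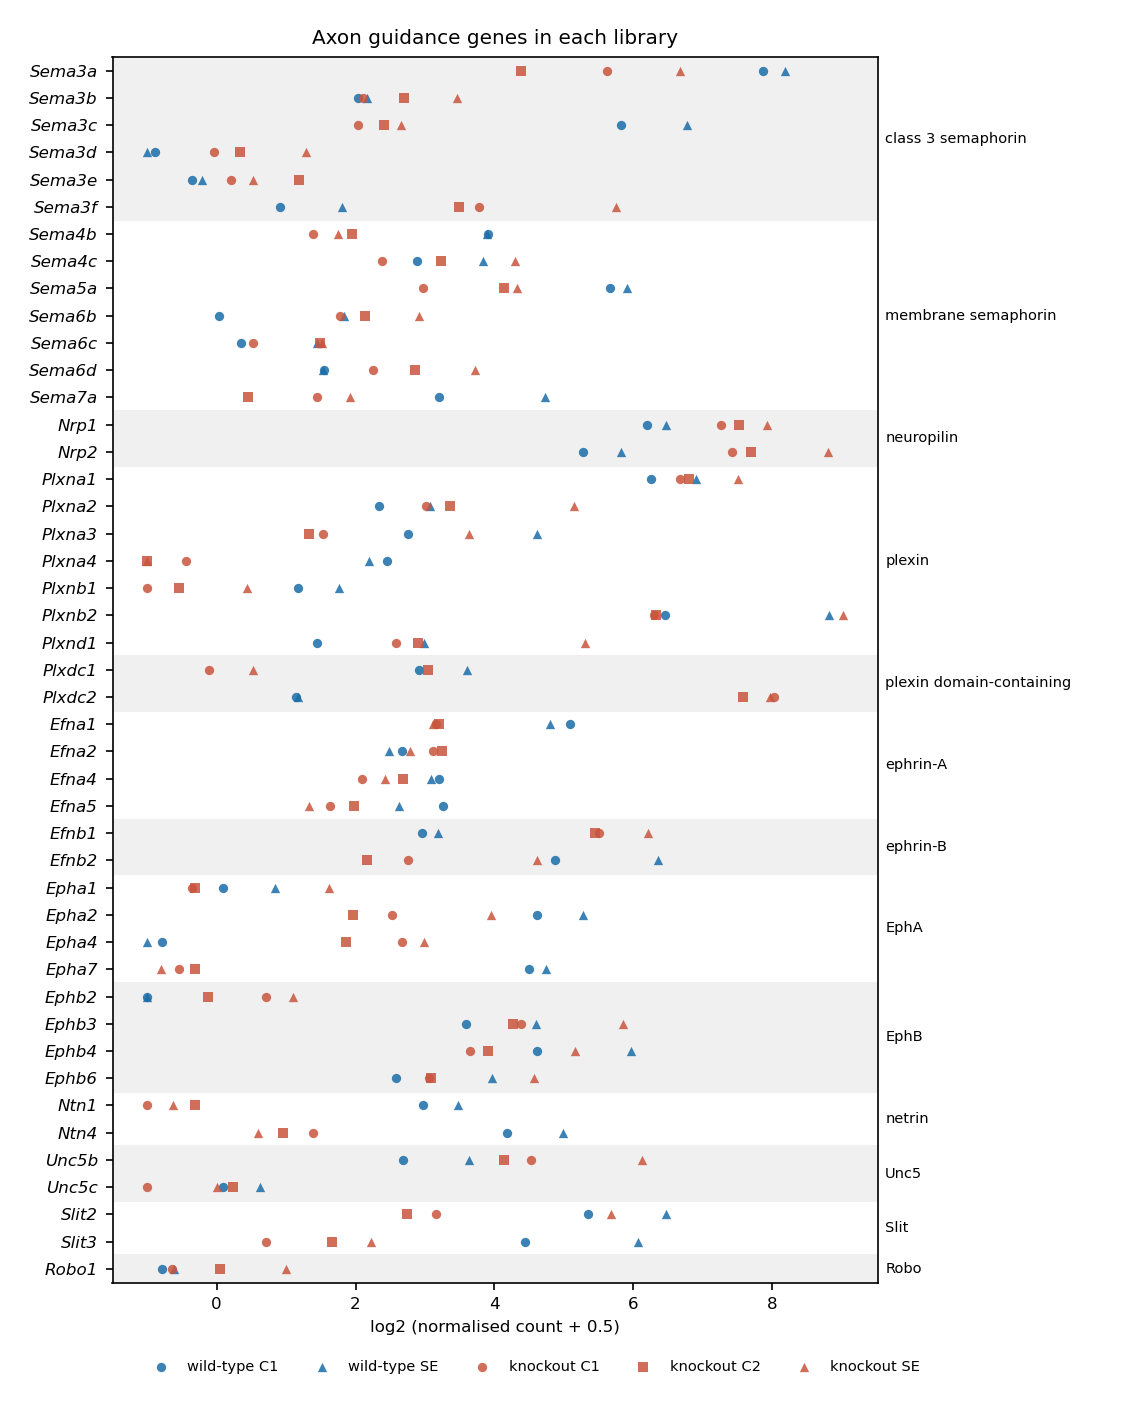
Log2 of the normalised count plus 0.5 (x axis) in each of the 5 libraries for all 45 members (y axis), shaded by family. Blue marks are wild-type and red marks knockout libraries, circles C1, squares C2 and triangles SE. Plxdc2, Epha4 and Efnb1 show red marks well to the right of blue ones, and Epha7, Sema3c, Ntn1 and Ntn4 the opposite order.

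Ephrins differed between the groups in a member-specific way. The ephrin-A ligand Efna1, the main partner of EphA2, had 33.5 and 27.3 in wild-type and 8.46, 8.66 and 8.17 in knockout libraries. The 3 knockout values were nearly the same. Efna1 fell 3.61-fold (log2 fold change -1.78, SE 0.27, adjusted p = 0.00367). Without wild-type C1, with the genes of the full comparison kept, Efna1 was not called (adjusted p = 0.0555). Efna5, a ligand of EphA receptors in topographic maps of the brain, had 9.12 and 5.65 against 2.59, 3.44 and 2.01. Its groups did not overlap, and it fell 2.76-fold (log2 fold change -1.30, SE 0.36, adjusted p = 0.032). The call for Efna5 was lost without wild-type C1, wild-type SE or knockout C1 (adjusted p = 0.223, 0.0769 and 0.0763). Efna4, which shares a stretch of 66.3 kb with Efna1, was lower in each knockout library but did not pass, at 8.35 ± 0.52 and 4.85 ± 1.07 (adjusted p = 0.112, and 0.0489 with the suffix as a block). Exons of an antisense gene cover 10.5% of those of Efna4. Efna2 was at 5.48 ± 0.57 and 7.83 ± 1.32 (adjusted p = 0.274). Per kb, the ephrin-A ligands together were at 26.2 ± 3.6 in wild-type and 12.0 ± 1.3 in knockout libraries.

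The measured ephrin-B ligands took opposite directions. Efnb1, a transmembrane ligand of EphB receptors with a known part in skeletal patterning, had 7.26 and 8.65 in wild-type and 44.9, 43.1 and 73.7 in knockout libraries. All knockout libraries were far above both wild-type libraries. Efnb1 rose 6.78-fold (log2 fold change 2.65, SE 0.32, adjusted p = 0.00159). Efnb2, the arterial ephrin and the ligand of EphB4, had 28.9 and 81.6 against 6.25, 3.97 and 24.1. The knockout values were all below the wild-type values, but both groups held a high SE library. Its log2 fold change was -2.44 (SE 0.79, adjusted p = 0.0531), and within the suffixes the difference was -2.42 in the C libraries and -1.74 in the SE libraries. With the suffix as a block, Efnb2 was called (log2 fold change -2.13, adjusted p = 0.000697). Efnb1 held 25.3% ± 11.2 of the ephrin-B level per kb in wild-type and 91.6% ± 5.1 in knockout libraries. The promoter of Efnb1 is shown because Efnb1 and Sema3f were the ligands that rose and a sequence was at hand for Efnb1. The notation is the same.
Efnb1 promoter: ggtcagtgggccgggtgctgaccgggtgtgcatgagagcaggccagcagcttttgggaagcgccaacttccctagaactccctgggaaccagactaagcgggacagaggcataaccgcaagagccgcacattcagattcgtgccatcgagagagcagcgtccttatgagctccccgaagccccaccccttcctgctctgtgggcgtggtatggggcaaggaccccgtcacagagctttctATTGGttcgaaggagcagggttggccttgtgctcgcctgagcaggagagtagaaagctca
This window, chrX:99135811-99136110 on the plus strand of GRCm38.p6 (RefSeq), was 59.7% G and C, with 14 CpG, no GC box and 1 CCAAT box.

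**Figure D3:**
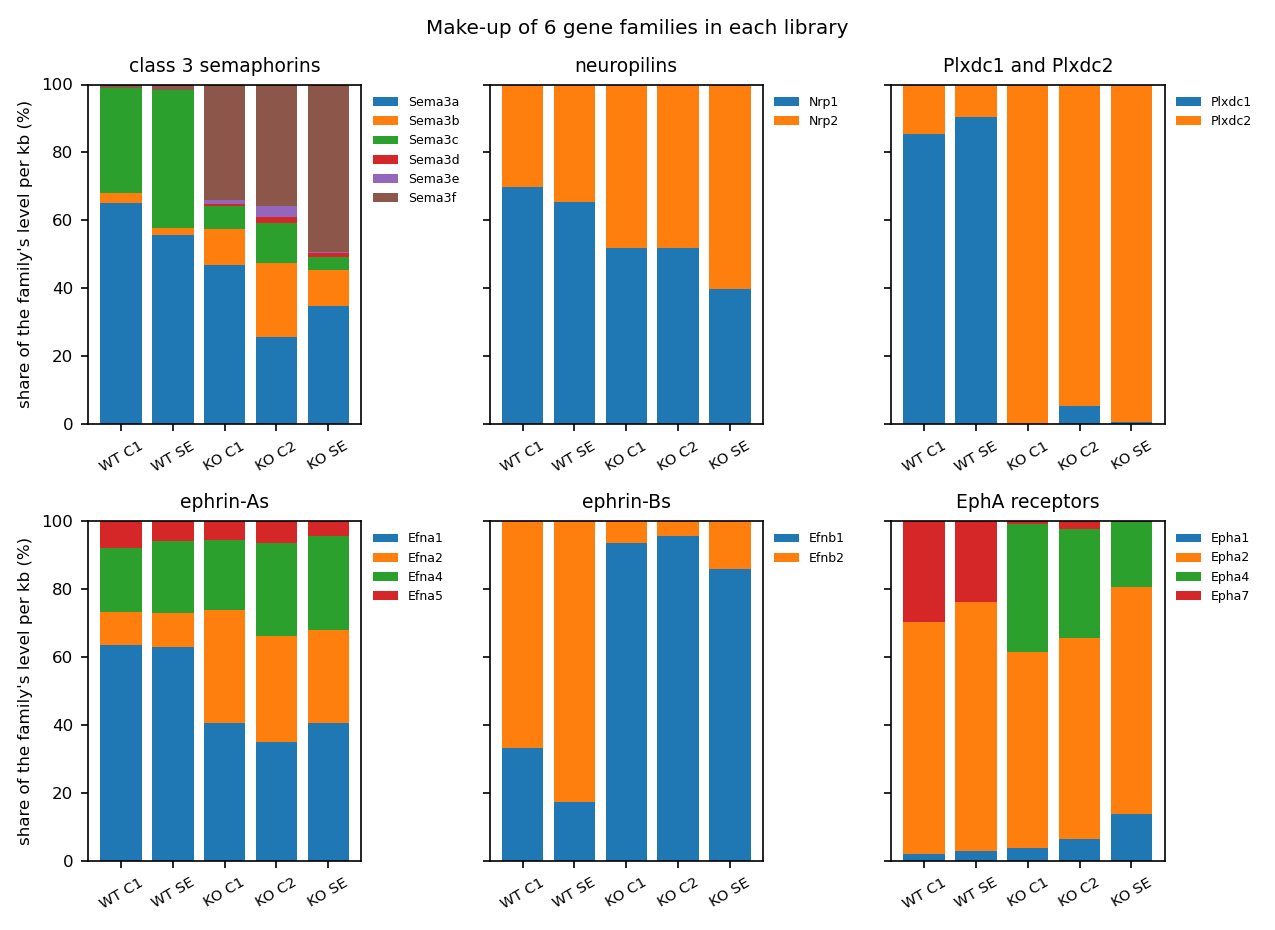
Share of each member in its family's summed level per kb of exon (y axis, percent) in each library (x axis) for 6 families. Colours stand for genes, and each bar adds up to all measured members of the family. Sema3f, Nrp2, Plxdc2, Efna2, Efnb1 and Epha4 take larger shares in the 3 knockout bars than in the wild-type bars.

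Among the EphA receptors, Epha7 and Epha2 fell and Epha4 rose. Epha7, an EphA receptor known from the developing cortex, had 22.0 and 26.4 in wild-type and 0.188, 0.303 and 0.0717 in knockout libraries, from 1052 reads against 13. The knockout was close to the limit of detection in all 3 libraries. Epha7 fell 129-fold, and by 98.6-fold to 186-fold without single libraries (log2 fold change -5.17, SE 0.30, adjusted p = 0.000107). Epha4, which binds ephrins of both classes, had 0.0811 and 0 in wild-type and 5.88, 3.14 and 7.45 in knockout libraries. Its 2 wild-type reads against 312 in the knockout put the knockout rate at 111 times that of the wild type, with an exact 95% interval from 30.5 to 923 (log2 fold change 3.40, SE 0.39, adjusted p = 0.00126). Both wild-type reads were in C1, so the ratio of means was 67.7 without wild-type SE and had no wild-type read without wild-type C1. Epha2, the receptor of ephrin-A1 on epithelia and vessels, had 23.95 and 38.4 against 5.27, 3.40 and 14.9. Knockout SE was the highest of its group and still below the wild type. Epha2 fell 3.97-fold (log2 fold change -2.13, SE 0.60, adjusted p = 0.0347), or 7.19-fold without knockout SE. The call was lost without each of the other 4 libraries (adjusted p between 0.0758 and 0.159). Of the EphA level per kb, Epha7 held 26.7% ± 4.15 in wild-type and 1.21% ± 1.19 in knockout libraries, and Epha4 0.067% ± 0.0948 and 29.5% ± 9.3. Epha1 was low, at 0.931 ± 0.514 and 1.055 ± 1.32, and its exons overlap those of Zyx on the opposite strand (adjusted p = 0.882). The promoters of these 2 receptors are shown because related genes changed in opposite directions.
Epha7 promoter: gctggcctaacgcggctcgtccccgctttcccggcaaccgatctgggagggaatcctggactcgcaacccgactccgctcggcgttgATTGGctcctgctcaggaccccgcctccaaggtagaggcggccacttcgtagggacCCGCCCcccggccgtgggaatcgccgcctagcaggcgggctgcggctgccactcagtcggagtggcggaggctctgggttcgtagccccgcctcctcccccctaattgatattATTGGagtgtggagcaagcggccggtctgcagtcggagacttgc
Epha4 promoter: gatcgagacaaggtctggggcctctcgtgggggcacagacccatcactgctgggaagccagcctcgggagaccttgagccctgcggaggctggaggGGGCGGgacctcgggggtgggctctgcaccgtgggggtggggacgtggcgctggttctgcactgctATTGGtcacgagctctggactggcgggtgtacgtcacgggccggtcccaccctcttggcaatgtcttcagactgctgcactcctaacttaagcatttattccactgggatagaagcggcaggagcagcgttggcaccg
The window of Epha7, chr4:28812881-28813180 on the plus strand, held 28 CpG, 1 GC box and 2 CCAAT boxes in 67.0% G and C. That of Epha4, chr1:77515039-77515338 on the minus strand, held 17 CpG, 1 GC box and 1 CCAAT box in 64.0% G and C (both GRCm38.p6, RefSeq).

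Of the 4 EphB receptors, Ephb2 rose and the others did not pass. Ephb2 was listed at 0 in both wild-type libraries and had 1.13, 0.416 and 1.65 in the knockout, from 58 reads. At a floor of 3 reads per wild-type library it was at least 7.68-fold higher (adjusted p = 0.0233), a call lost without either wild-type library. With the genes of the full comparison kept, the call was also lost without knockout C1 (adjusted p = 0.0547). With the filter repeated, Ephb2 was not tested without knockout C1 or without knockout SE. Ephb4, the venous receptor of ephrin-B2, had 24.1 and 61.8 against 12.0, 14.5 and 35.2. Each group again held a high SE library, and the groups overlapped (log2 fold change -1.06, SE 0.58, adjusted p = 0.204). With the suffix as a block its log2 fold change was -0.83 (adjusted p = 0.00549). Ephb3 had 11.6 and 23.8 against 20.4, 18.8 and 57.5 (log2 fold change 0.74, SE 0.56, adjusted p = 0.352, and 0.00486 with the block). Ephb6, whose kinase domain is inactive, was at 10.3 ± 6.8 and 13.1 ± 8.9 (adjusted p = 0.738). Summed per kb, the EphB receptors were at 14.6 ± 8.8 in wild-type and 12.8 ± 8.4 in knockout libraries. Within this sum, the share of Ephb4 was 62.8% ± 1.3 in wild-type and 35.1% ± 3.0 in knockout libraries, and that of Ephb3 was 19.0% ± 2.6 and 37.5% ± 2.3.

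Both measured netrins fell. Ntn1, the secreted laminin-like cue that attracts axons through DCC and repels them through Unc5 receptors, had 7.38 and 10.6 in wild-type and 0, 0.303 and 0.143 in knockout libraries, from 387 reads against 10. Knockout values were at or near 0 in each library. Ntn1 fell 60.5-fold (log2 fold change -3.88, SE 0.33, adjusted p = 0.000391), by 40.4-fold without knockout C1 and by 126-fold without knockout C2. Ntn4, a netrin of basement membranes that binds laminin, had 17.6 and 31.2 against 2.12, 1.44 and 1.00. The groups were far apart, and Ntn4 fell 16.1-fold (log2 fold change -3.61, SE 0.40, adjusted p = 0.00104). Per kb, the netrins together went from 7.96 ± 2.93 to 0.430 ± 0.137. Their repulsive receptor Unc5b had 5.92 and 12.0 against 22.7, 17.1 and 69.6. Each knockout library was above both wild-type libraries, but the difference did not pass (log2 fold change 1.77, SE 0.63, adjusted p = 0.0721). It was called with the suffix as a block (log2 fold change 2.01, adjusted p = 0.00075). Unc5c was too low for the test, at 0.802 ± 0.331 and 0.394 ± 0.353. Neogenin, the DCC-related receptor encoded by Neo1, had 71.8 and 158 in wild-type and 31.3, 33.5 and 105 in knockout libraries and was not called (adjusted p = 0.187).

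Both measured Slits, the secreted ligands of Robo receptors, had lower knockout means, and Slit3 passed the test. Slit3 had 21.2 and 66.4 in wild-type and 1.13, 2.65 and 4.16 in knockout libraries. The wild-type libraries differed 3.13-fold from each other, less than the gap between the groups. Slit3 fell 16.6-fold (log2 fold change -3.73, SE 0.62, adjusted p = 0.00537), by 8.03-fold without wild-type SE and 25.1-fold without wild-type C1. With the genes of the full comparison kept, it was not called without wild-type SE (adjusted p = 0.0722). Slit2 had 40.1 and 88.6 against 8.42, 6.17 and 50.8. Knockout SE lay between the wild-type libraries, and the other knockout libraries lay below both. The log2 difference of Slit2 was -2.40 in the C libraries and -0.80 in the SE libraries. Its overall log2 fold change of -2.05 did not pass (SE 0.88, adjusted p = 0.119), and it was called without knockout SE (adjusted p = 0.00086) and with the suffix as a block (adjusted p = 0.00611). Robo1, the only Robo receptor among the members, was too low for the test, with 5 wild-type and 38 knockout reads.

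Many members also differed between the SE and C libraries of the same genotype. The SE library was above each C library in both groups for 27 of the 41 tested members, against 33.1% of all tested genes. The ratio of SE to C was 5.17 in wild-type and 6.56 in knockout libraries for Plxnb2, and 3.86 and 5.44 for Plxna3. Compared within the suffixes, the sign of the difference between knockout and wild type was the same in C and SE for 38 of the 41 members, against 87.8% of all genes. The exceptions were Epha1, Plxnb2 and Sema4c. With the suffix as a block, 14 members were higher and 19 lower, among them all 21 called without it. Of all 12484 tested genes, 3530 were higher and 4038 lower with the block, against 2150 and 2129 without it. The interaction of group and suffix, which rests on 1 residual degree of freedom, was called by limma for 0 of 12484 genes. At an unadjusted p under 0.05 it held 327 of the 12484 genes and 2 of the 41 members (Epha1 and Slit2). Both shares were below 0.05, so the 2 names are no result about these members.

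**Figure D4:**
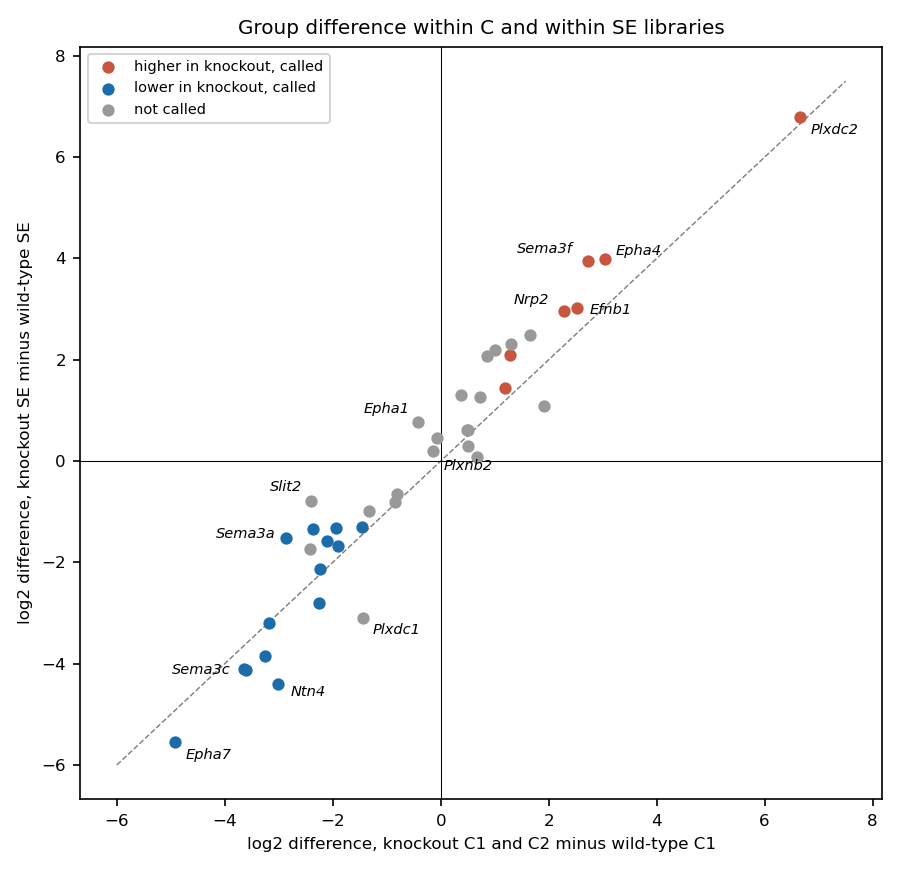
Log2 difference between knockout and wild type within the C libraries (x axis) and within the SE libraries (y axis), log2 of the normalised count plus 0.5, for the 41 tested members. Red and blue points were called higher and lower, and the dashed line marks equal differences. Plxdc2 (6.66 and 6.79) and Epha7 (-4.92 and -5.55) lie near the line, Slit2 (-2.40 and -0.80) above it and Plxdc1 (-1.45 and -3.09) below it.

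In GENCODE M21 (GRCm38), matched by Ensembl identifier, the members with the largest changes are spread over the genome. Those that rose include Plxdc2 (ENSMUSG00000026748) at chr2:16356304-16755839 on the plus strand, Epha4 (ENSMUSG00000026235) at chr1:77367185-77515088 on the minus strand, Sema3f (ENSMUSG00000034684) at chr9:107681500-107710475 on the minus strand, Efnb1 (ENSMUSG00000031217) at chrX:99136130-99148991 on the plus strand and Nrp2 (ENSMUSG00000025969) at chr1:62703285-62818695 on the plus strand. Among those that fell are Epha7 (ENSMUSG00000028289) at chr4:28813131-28967499 on the plus strand, Sema3c (ENSMUSG00000028780) at chr5:17574281-17730268 on the plus strand, Ntn1 (ENSMUSG00000020902) at chr11:68209364-68400823 on the minus strand, Slit3 (ENSMUSG00000056427) at chr11:35121224-35708507 on the plus strand and Ntn4 (ENSMUSG00000020019) at chr10:93640681-93747207 on the plus strand. Values are given per gene, so isoforms were not told apart.

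The tested members were compared with the genes around them, up to 25 tested genes on each side in GENCODE M21 (GRCm38). The window was cut at chromosome ends, which left 29 neighbours for Nrp1 and 27 for Plxna2. The median log2 fold change of these neighbours lay between -0.72 (Epha7) and 0.85 (Epha4). For 27 of the 41 tested members it had the sign of the member's own change, against 63% of all tested genes. Class 3 semaphorin genes stand close together on chromosome 5, where Sema3d, Sema3a, Sema3e and Sema3c lie between 12383385 and 17730268 with 6 tested genes in this stretch. The neighbours of Sema3a and Sema3c had a median of -0.35. Sema3d and Sema3e of the same stretch had more reads in the knockout, so the 4 genes did not share a direction. Efna1 and Efna4 lie within 66.3 kb on chromosome 3 and both had lower values in each knockout library.

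Promoters of the members, 250 bases before to 50 after the start of transcription, were read from RefSeq (GRCm38.p6), which matched 38 of 45 members with 46 promoters. The GC box GGGCGG on either strand was in 37 of the 46, or 80.4%, against 35.7% of all 32851 promoters of the same length. Those promoters cover 27025 genes, whereas the members come from the 12621 genes of the table. Promoters of the other table genes were not compared. Whether membership or presence in the table goes with the differences in this paragraph was not tested. The median G and C content was 66.5%, against 52.7% in all promoters. The TATA box motif TATAAA was in 2 of the 46 (4.35%, against 13.6%), and the CCAAT motif, with its reverse complement ATTGG, in 11 (23.9%, against 37.4%). Among promoters of members that fell, the GC box was in 14 of 15, from 12 genes. It was in 3 of 5 for members that rose, from 5 genes, and in 19 of 22 for members not called, from 17 genes. Efna1, Epha7 and Sema4b, which fell, entered with 2 promoters each, and the 2 windows of Epha7 overlap almost fully. The GC box can overlap other motifs rich in G and C, and a match is a description of the letters only. The AP-1 motif TGANTCA was in 4.35% and the E-box CACGTG in 6.52% of the members' promoters, against 7.81% and 7.15% of all.

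Co-receptors and cytoplasmic transducers of guidance signals, a list of 87 genes outside the members, changed in both directions. Of 68 tested, 13 were higher (19.1%, against 17.2% of all genes) and 10 lower (14.7%, against 17.1%), with a median log2 fold change of 0.21. Among 15 co-receptors and other guidance molecules, 3 rose and 5 fell (33.3%), and among 53 transducers, 10 rose and 5 fell (9.43%). For the whole list, the 13 higher and 10 lower became 8 and 8 on leaving out knockout C2, and 12 and 17 on leaving out knockout SE. Both counts also fell on leaving out either wild-type library, which leaves 1 library in that group. Sdc1, the cell surface proteoglycan syndecan-1, had 96.4 and 101 in wild-type and 544, 658 and 481 in knockout libraries, and rose 5.69-fold (adjusted p = 0.000521). Mical1, an oxidase of actin downstream of plexins, had 10.4 and 26.2 against 77.6, 128 and 171 (6.84-fold, adjusted p = 0.00587). Both rose in all knockout libraries. Cntn1, a contactin, had no wild-type read and was at least 73.6-fold higher, at 5.22, 9.23 and 16.1. Srgap1, a GTPase-activating protein that binds Robo receptors, had 1 wild-type read and 176 knockout reads, or 126 times the wild-type rate (95% interval from 22.2 to 4986). The 4 named in the other direction were at or near 0 in the knockout. Ngef, the exchange factor ephexin that binds EphA receptors, had 107 and 132 in wild-type and 0, 0 and 0.0717 in knockout libraries, from 5190 reads against 1. Vav3, an exchange factor that is recruited by Eph receptors, had 449 wild-type reads and 2 knockout reads, a wild-type rate 315 times that of the knockout (95% interval from 86.6 to 2607). Dpysl3, of the family that relays semaphorin signals to microtubules, had 458 and 364 against 0.705, 0.946 and 0.287. Flrt2, a ligand of Unc5 receptors, had 14.9 and 27.0 against 0.141, 0.227 and 0.645. Every knockout value of these genes was below both wild-type values.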

How the data were processed

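Poly(A) RNA was sequenced from a stranded library kit as single-end reads of 75 bp, per the labels' protocols. The submitters' processing notes name STAR 2.5, featureCounts 1.5.2 and edgeR without a role. For genome build, annotation and use of strand, the entry is not given in the sources used here. The deposited values are a signal, read counts per gene that the authors scaled by library to about the level of CPM. Dividing by each library's step returned whole reads for 100% of values, with a tolerance of 0.02 read. Column names carry the group but no replicate number.

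The main test was limma 3.58.1 (eBayes with a trend, 3 residual degrees of freedom) on log2 of the value plus 0.5, over genes at 1 or more in at least 2 libraries. The Benjamini-Hochberg adjustment covered all 12484 genes. Log2 fold changes understate changes of low genes, and folds compare group means on the deposited scale. Bounds use a floor of 3 reads per library, and intervals and floors cover counting error only. Alternatives included edgeR 4.0.16 (quasi-likelihood) and DESeq2 1.42.0 on recovered reads. Levels per kb use exon lengths of GENCODE M21. By rule, values per library were given for called members whose groups did not overlap and whose higher mean reached 5, for members with no read in 1 group and for the 8 most abundant uncalled ones, and for 4 listed pathway genes per direction with the smallest p. The remaining members were described after their values were seen. Members, lists and the suffix block were chosen with earlier results of these data known. Calculations used R 4.3.3 and Python 3.11.15.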

Additional observations from a re-analysis of the deposited data

How the results depend on the processing

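No paired analysis was possible because the columns carry no replicate number of the sample titles. The column suffix was used as a block in its place. Counts of members kept within 1.5 times under rescaling, other pseudocounts, filters, variance models and tools, at 6 to 9 higher and 12 to 15 lower. Leaving out single libraries, with the filter repeated or, as added after seeing the data, with the genes of the full comparison kept, gave 3 to 8 higher and 5 to 18 lower members, 846 to 2409 higher and 594 to 2632 lower genes in all, and 3 to 13 higher and 2 to 17 lower co-receptors and transducers. With the suffix block these counts were 14 and 19, 3530 and 4038, and 27 and 17. Of the 21 called members, with the filter repeated each time, 12 were called under all other settings that gave a value and 9 were lost in at least 1. Of the 12, Efna1, Nrp2 and Slit3 were lost without a wild-type library when the genes of the full comparison were kept. Of the 21 losses of the other 9 members, with the filter repeated, 19 came from leaving out a library, 14 of them a wild-type one. Of the 8 abundant members not called, 7 were called in at least 1 other setting, each of them with the suffix block. Efnb2 was called in 5 of 17 other settings, Unc5b in 4, Ephb4 and Slit2 in 3, and Ephb3, Plxna1 and Plxna2 in 1. Among 475 refitted values of single members, 3 changed sign, all of Plxnb2, at -1.61 to 0.75 without single libraries, namely 0.75, 0.03 and 0.01 without wild-type SE, knockout C1 and knockout C2. With 2 wild-type libraries, the precision of the wild-type mean limits every comparison, and members that did not reach a normalised count of 1 in at least 2 libraries were not tested.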
